A study of Macaca mulatta with 9 samples.

Results

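Genes of the interferon response and of JAK-STAT signalling were examined in ovaries of rhesus monkeys (Macaca mulatta) of 3 ages. The set was chosen by gene symbol. It took every symbol starting with IFIT, IFITM, OAS, GBP, ISG or IFIH, the symbols IFI, IRF, STAT, JAK or MX followed by a digit, and the genes IFNAR1, IFNAR2, IFNGR1, IFNGR2, RSAD2 and RIGI (formerly DDX58). This gave 44 of the 14132 genes that the array annotation names alone, on 86 probe sets, and 21 of the 44 had more than 1 probe set. The value of a gene is that of its brightest probe set over the 9 arrays. STAT4, JAK1, IFNAR1, IFNGR1, IFNGR2, RSAD2, IRF9 and IFI6 were not analysed here, nor was GBP3, which was named only on probe sets shared with GBP1. A choice by letters also took IRF2BP1, which binds IRF2, and ISG20L2 and IFI27L2, relatives of ISG20 and IFI27.

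Each of 9 one-colour arrays held ovarian RNA of 1 monkey, with 3 monkeys aged 3 to 4 years (young), 3 aged 7 to 8 years (middle-aged) and 3 aged 18 to 19 years (old). Whole ovary was used, so fewer cells of a type and less RNA per cell cannot be told apart. Values are linear intensities that the labels credit to RMA, from 3.14 to 26458, and the lower quartile of an array lay between 9.0 and 9.57. Folds and tests use log2 values and limma over all 9 arrays, and a call needed a Benjamini-Hochberg adjusted p under 0.05 over 52766 probe sets and a fold of at least 1.5. The number of arrays limits the precision.

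Interferons are secreted when a cell detects foreign or misplaced nucleic acid. Their receptors activate Janus kinases, which phosphorylate STAT proteins, and STATs together with interferon regulatory factors (IRFs) switch on interferon-stimulated genes. Many of these genes encode proteins that block viral replication. Cytokines and hormones that act on the ovary, prolactin and growth hormone among them, use the same kinases and STATs.

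No gene of the set passed the limma test in any comparison of ages, and the permutation method SAM, run on the same values, called 0 as well. At an unadjusted limma p under 0.05, 6 members (13.6%) differed between old and young ovaries, against 18.8% of all named genes. Old and middle-aged ovaries differed so for 2 members (4.55%, against 11.3%), and middle-aged and young ovaries for 0 (against 3.30%). After adjustment, old and young ovaries gave 82 calls among all probe sets (0.155%), old and middle-aged ovaries 18 (0.0341%), and middle-aged and young ovaries 1 (0.0019%). High values instead gathered on 2 of the arrays. The second middle-aged ovary and the first old ovary each had 9 of the 44 genes at least 2-fold above the median of the other 8 arrays, and no other array had more than 2. The map of all members shows these 2 columns.

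**Figure D1:**
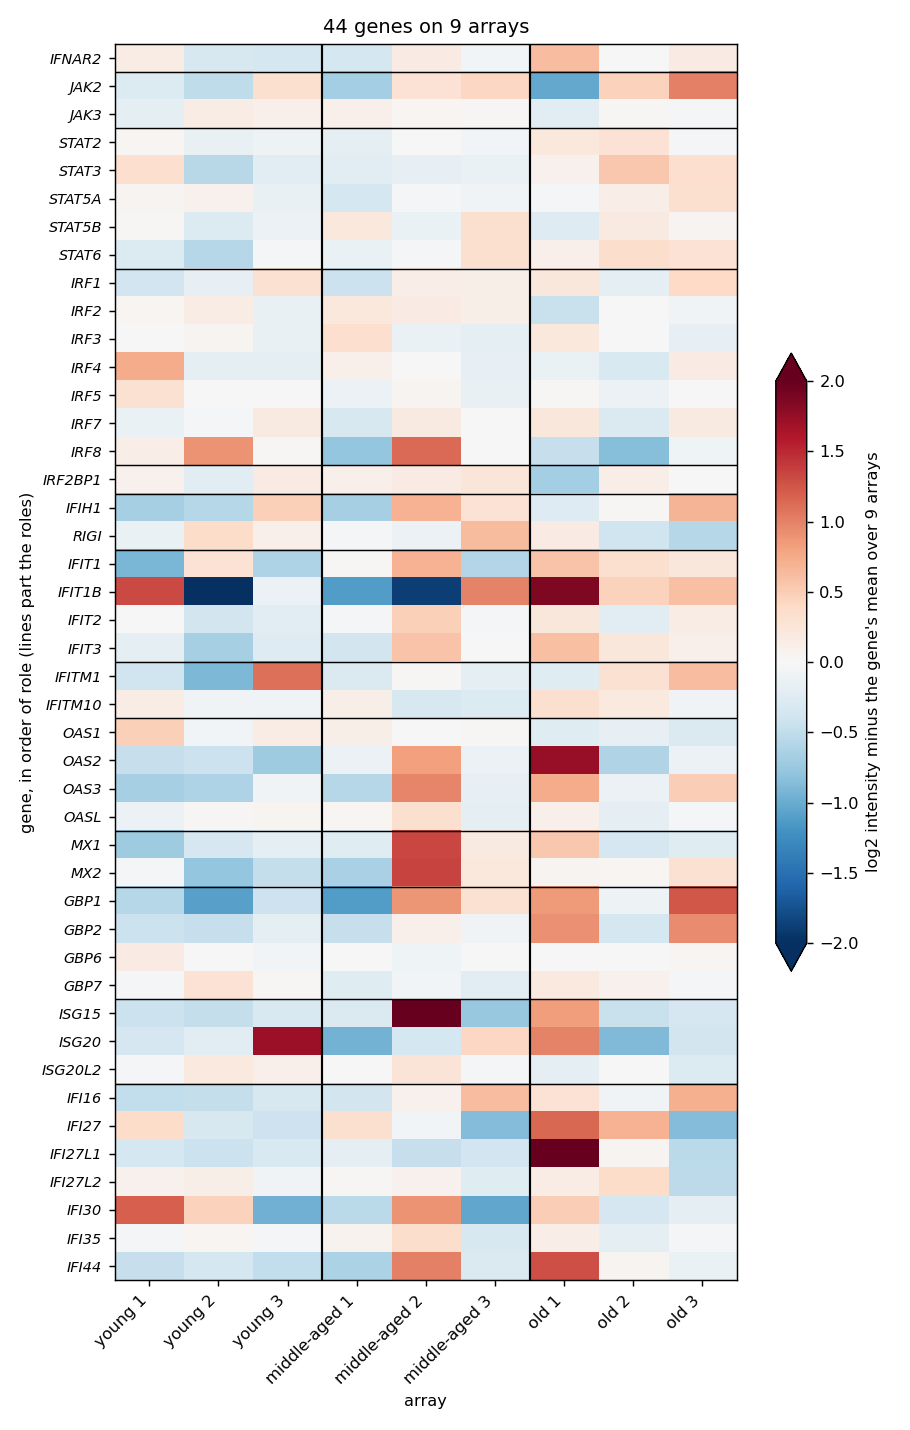
Log2 intensity of the 44 genes on the 9 arrays, each minus its gene's mean over the arrays (colour, limited to 2 either way). Rows follow the genes' roles and columns the arrays. Red cells gather in the sensors and effectors, the lower part of the map, in the columns middle-aged 2 and old 1.

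Of all 14132 genes, 1.32% stood at least 2-fold above the other arrays on the middle-aged 2 array, against 20.5% of the members. On the old 1 array the shares were 6.98% of all genes and 20.5% of the members. Middle-aged 2 held the smallest share of such high genes of the 9 arrays. Old 1 held the largest, and it also held the largest share of genes at least 2-fold below the other arrays (5.05%, against 0.25% on middle-aged 2), JAK2 among them. Middle-aged 2 was the highest array for 11 members, or 25% of them, and for 5.17% of all genes. Old 1 was the highest array for 9 members (20.5%) and for 20% of all genes.

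**Figure D2:**
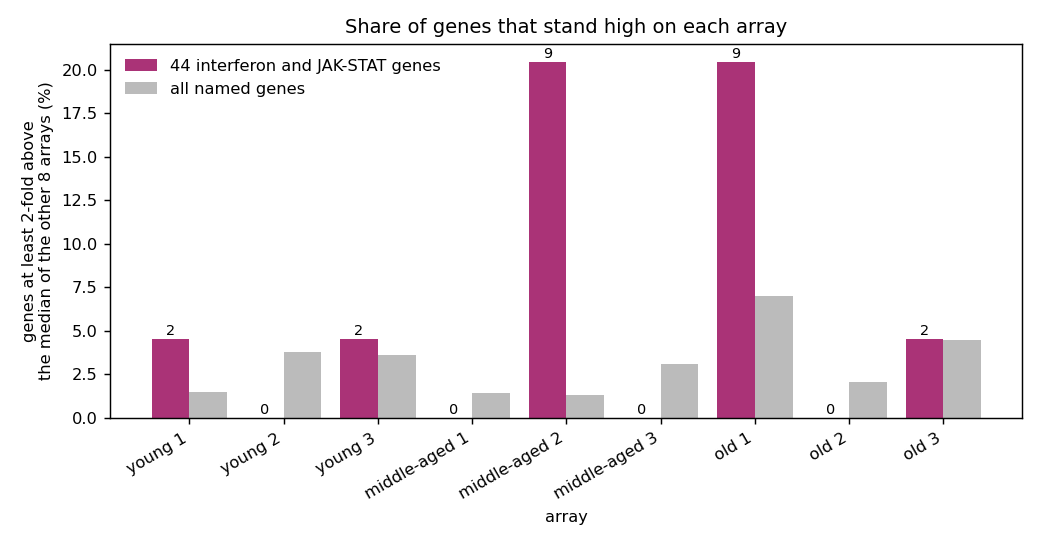
Percent of genes at least 2-fold above the median of the other 8 arrays, for each array. Dark bars are the 44 interferon and JAK-STAT genes with their number above, and grey bars are all 14132 named genes. Middle-aged 2 and old 1 reach 20.5% of the members, and the other 7 arrays hold at most 2 members each.

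The signalling genes and the effectors differed in their spread. The median standard deviation of log2 values within age groups was 0.23 over the 16 receptor, kinase, STAT and IRF genes, 0.54 over the 28 sensors and effectors, and 0.25 over all named genes. Effectors varied less among the young monkeys (median SD 0.22) than among the middle-aged (0.48) and the old monkeys (0.44). The median deviation of the effectors from their means was 0.29 on middle-aged 2 and 0.41 on old 1, and it lay between -0.34 and -0.04 on the other 7 arrays. These spreads are descriptions and were not tested against each other.

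ISG15, a ubiquitin-like protein that is attached to other proteins after interferon, had one of the 3 widest ranges. It read 141, 138 and 154 on the young arrays, 155, 883 and 113 on the middle-aged arrays, and 341, 141 and 150.3 on the old arrays. Middle-aged 2 was 6.07-fold and old 1 was 2.34-fold above the median of the other arrays, and the other 7 arrays lay close together. The age groups overlapped, and the log2 fold change of old over young was 0.43 (95% interval -1.18 to 2.03, limma adjusted p = 0.836). Without old 1 it was 0.02, and without middle-aged 2 the log2 fold change of middle-aged over young went from 0.79 to -0.12.

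The MX proteins are dynamin-like GTPases that trap viral particles. MX1 read 199, 259 and 287 in young, 277, 820.3 and 369.7 in middle-aged, and 473, 257 and 276 in old ovaries. Middle-aged 2 was again highest, 2.97-fold above the median of the others, followed by old 1. MX1 had the highest t of all members between middle-aged and young ovaries (log2 fold change 0.84, 95% interval -0.08 to 1.75, limma adjusted p = 1.00), and the groups overlapped. Its log2 fold change there was 0.38 without middle-aged 2. MX2 read 93.3, 55.5 and 68.3 in young, 60.4, 242 and 109.7 in middle-aged, and 98.4, 97.5 and 117 in old ovaries. Old 1 did not stand out for MX2, and all 3 old values lay above the young ones.

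The OAS enzymes make short oligoadenylates that activate an RNA-degrading enzyme. OAS2 read 16.8, 17.1 and 14.1 in young, 21.2, 40.6 and 21.2 in middle-aged, and 77.0, 15.3 and 21.4 in old ovaries. OAS3 read 68.6, 70.8 and 104 in young, 73.7, 216 and 97.7 in middle-aged, and 183, 100.4 and 153 in old ovaries. Middle-aged 2 and old 1 were the 2 highest arrays for both genes. OASL, an OAS-like protein without that enzyme activity, stayed between 21.5 and 30.8, with middle-aged 2 highest.

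OAS1 was measured by 5 probe sets that moved apart. The brightest, which stands for the gene here, read 434, 302 and 345 in young, 340.2, 311 and 319 in middle-aged, and 264, 278 and 255 in old ovaries. All old values lay below all others, with a log2 fold change of old over young of -0.42 (95% interval -0.74 to -0.10, limma adjusted p = 0.254). The second brightest probe set read 71.8, 79.0 and 101 in young, 56.1, 220.4 and 69.2 in middle-aged, and 352, 150.0 and 113 in old ovaries, which gave old over young a value of 1.13 on the log2 scale. That probe set had middle-aged 2 and old 1 as its highest arrays, as OAS2 and OAS3 had, and so did the third. The sign of the OAS1 difference between old and young thus depended on the probe set.

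**Figure D3:**
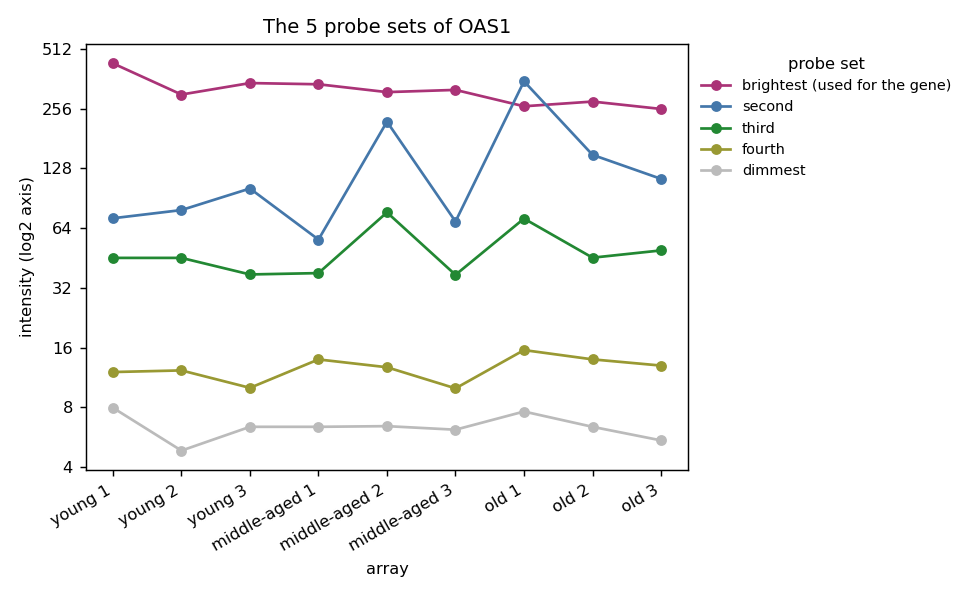
Intensity (log2 axis) of the 5 probe sets of OAS1 on the 9 arrays, each line a probe set. The brightest is lowest on the 3 old arrays (255 to 278), while the second and the third peak on middle-aged 2 and old 1.

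IFI44, an interferon-induced protein of the cytoplasm, read 186, 201 and 182 in young, 166, 517 and 209.8 in middle-aged, and 629, 265 and 233 in old ovaries. All old values exceeded all young ones, and old 1 and middle-aged 2 were 3.06-fold and 2.52-fold above the median of the other arrays. Old over young gave a log2 fold change of 0.84 (95% interval -0.24 to 1.92, limma adjusted p = 0.483) and 0.39 without old 1. Its second probe set had a log2 fold change of 0.68.

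High values that belonged to old 1 without middle-aged 2 were found in the IFI27 family, small hydrophobic proteins of mitochondria and other membranes. IFI27L1 read 95.9, 90.9 and 98.9 in young, 108, 88.9 and 94.2 in middle-aged, and 737, 127 and 84.4 in old ovaries. Old 1 was 7.76-fold above the median of the others, the largest such fold of any member, and the other 8 arrays lay between 84.4 and 127. For old over young the log2 fold change went from 1.07 to 0.12 without that array. IFI27 reached 10274 on old 1, and it read 7463 on old 2 and 2544 on old 3, against 3454 to 5963 in young ovaries. IFI27L2 ranged from 2226 to 4103, and both ends were old ovaries.

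The IFIT proteins bind viral RNA. IFIT3 read 1292, 931 and 1236 in young, 1146, 2192 and 1489.7 in middle-aged, and 2246, 1736 and 1582 in old ovaries. All old values lay above all young ones, and middle-aged 2 and old 1 were the highest. The log2 fold change of old over young was 0.68 (95% interval 0.11 to 1.26, limma adjusted p = 0.298), and its 3 probe sets gave 0.54 to 0.68. IFIT2, with 6 probe sets, gave log2 fold changes from 0.14 to 0.59 across them. IFIT1 read 175, 402 and 214 in young and 487, 413 and 385 in old ovaries, so young 2 reached into the old range.

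IFIT1B, a paralog of IFIT1, had the widest range of all members and did not follow the others. It read 269, 25.02 and 100.1 in young, 49.7, 29.5 and 214 in middle-aged, and 394, 148 and 164 in old ovaries. Young 2 and middle-aged 2 were the lowest arrays and old 1 the highest, and each of the younger groups spanned more than the gap between group means. Old over young gave 1.28 on the log2 scale (95% interval -0.92 to 3.47, limma adjusted p = 0.604). The IFITM proteins sit in membranes and hinder viral entry. IFITM1 ranged from 1491 (young 2) to 5964 (young 3), and IFITM10 read 18.1, 15.6 and 15.6 in young, 17.6, 13.1 and 13.5 in middle-aged, and 20.4, 18.6 and 15.6 in old ovaries.

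The guanylate-binding proteins (GBPs) are GTPases that interferon gamma induces strongly. GBP1 read 149, 103 and 166 in young, 101, 407 and 270.5 in middle-aged, and 399, 205 and 518 in old ovaries. All old values lay above all young ones. Here old 3 was the highest array, ahead of middle-aged 2 and old 1. The log2 fold change of old over young was 1.35, or 2.55-fold (95% interval 0.16 to 2.54, limma adjusted p = 0.319). The 4 brighter of its 6 probe sets gave log2 fold changes from 1.31 to 1.67, and the 2 dim ones 0.02 and 0.03. GBP genes are close paralogs, and 3 further probe sets carried both GBP1 and GBP3 in the annotation, so the signal of GBP1 may include that of a relative.

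GBP2 read 69.3, 67.9 and 82.3 in young, 67.5, 100.5 and 88.3 in middle-aged, and 175, 72.9 and 179 in old ovaries. Old 1 and old 3 were high, while old 2 lay within the young range. Old over young gave a log2 fold change of 0.85 (95% interval 0.09 to 1.62, limma adjusted p = 0.323). Its other probe sets gave only 0.25 and 0.21. They read 23.0, 51.6 and 57.5, and 15.2, 28.2 and 31.4 in old ovaries, with old 1 the lowest of these. By its brightest probe set, GBP2 was the only member to be called when any 1 array was left out. This happened without old 2, the array that read low there (log2 fold change 1.28, limma adjusted p = 0.0494). GBP6 and GBP7 read at most 6.94 on any array, under the lower quartile of every array. GBP7, among the extremes by t in both comparisons with middle-aged ovaries, read 5.60, 6.94 and 5.77 in young, 4.80, 5.51 and 4.89 in middle-aged, and 6.52, 6.06 and 5.53 in old ovaries.

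IFI16 is a nuclear and cytoplasmic sensor of DNA. It read 694, 701 and 781 in young, 755, 1036 and 1493 in middle-aged, and 1182, 929 and 1598 in old ovaries. All old values lay above all young ones, and middle-aged 3 and old 3 were the highest, not middle-aged 2 and old 1. Between old and young the log2 fold change was 0.74, or 1.67-fold (95% interval 0.12 to 1.35, limma adjusted p = 0.292). Its 3 probe sets lay close, from 0.74 to 0.79, and without old 1 the value was 0.75. Middle-aged over young gave 0.54 (limma adjusted p = 1.00), with middle-aged 1 inside the young range on this brightest probe set. On the other 2 probe sets all middle-aged values lay above all young ones. Their log2 fold changes were 0.79 and 0.50, and neither was called.

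The cytosolic RNA sensors gave other orders. IFIH1 (MDA5) ranged from 141 to 361 and had its 2 highest values on middle-aged 2 and old 3. RIGI read 11.01, 15.5 and 12.9 in young, 11.7, 11.1 and 18.7 in middle-aged, and 13.4, 9.14 and 8.14 in old ovaries, close to the lower quartile of the arrays. Its log2 fold change of old over young was -0.38 (95% interval -0.97 to 0.21, limma adjusted p = 0.564). ISG20, an exonuclease, was highest on young 3 (306) and old 1 (187) and lay between 48.6 and 124 elsewhere. ISG20L2 read 264, 309.8 and 292 in young, 274, 325 and 263 in middle-aged, and 236, 268 and 225 in old ovaries. Its log2 fold change of old over young was -0.25 (95% interval -0.54 to 0.04), with old 2 inside the young range. IFI30, a lysosomal thiol reductase of antigen processing, ranged from 215 on middle-aged 3 to 1009.9 on young 1, with middle-aged 2 second at 821. IFI35 read 384, 399 and 385 in young ovaries and between 312 and 496 elsewhere.

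**Figure D4:**
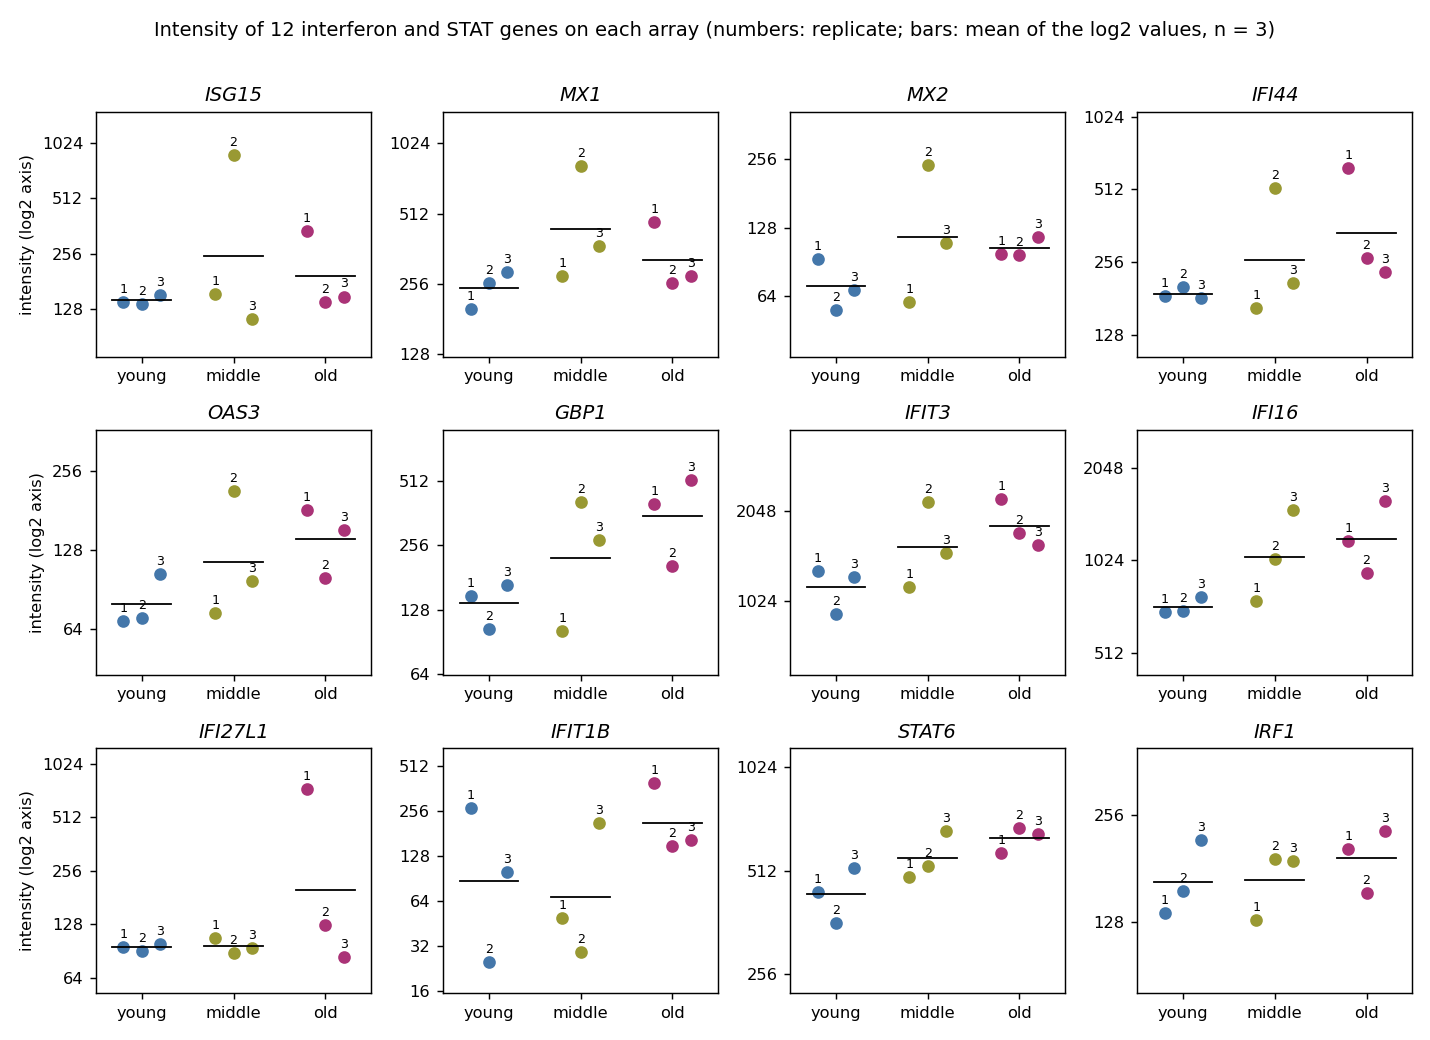
Intensity (log2 axis) of 12 genes on each array, by age group; numbers mark the replicate and bars the mean of the log2 values (n = 3). Middle-aged 2 stands highest for ISG15, MX1, MX2 and OAS3 and old 1 for IFI44 and IFI27L1, while STAT6 and IRF1 vary within a narrower range.

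Upstream of these genes, the signalling members differed less between arrays. IFNAR2, a subunit of the receptor for type I interferons, lay between 111 and 219 with old 1 highest, and its log2 fold change of old over young was 0.44 (95% interval -0.06 to 0.94, limma adjusted p = 0.424). Without old 1 it was 0.26, and the other probe set of IFNAR2 gave 0.06. JAK2, the kinase of many cytokine receptors, read 771, 653 and 1161 in young, 579, 1138 and 1233 in middle-aged, and 455, 1278 and 1863 in old ovaries. Old 1 was the lowest array and old 3 the highest, so the old group spanned the whole range. The 3 probe sets of JAK2 gave log2 fold changes of old over young from 0.30 to 1.06. JAK3 stayed between 10.3 and 13.2.

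STAT6, the mediator of interleukin-4 and interleukin-13 signals, had the smallest adjusted p of the set. It read 445, 361 and 522 in young, 489.5, 526 and 667 in middle-aged, and 574, 682 and 654 in old ovaries. All old values lay above all young ones and middle-aged values lay between or among them. The log2 fold change of old over young was 0.54, or 1.45-fold (95% interval 0.14 to 0.93, limma adjusted p = 0.244), and middle-aged over young gave 0.34 (adjusted p = 1.00). All 3 probe sets pointed the same way (0.48 to 0.72), and leaving out old 1 gave 0.61.

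STAT3, which interleukin-6 and its relatives activate, read 18.1, 9.86 and 12.3 in young, 12.3, 12.9 and 13.1 in middle-aged, and 15.3, 20.9 and 18.3 in old ovaries. The old values lay above all middle-aged values, with a log2 fold change of 0.50 (95% interval 0.003 to 0.99, limma adjusted p = 0.633). Young 1 lay inside the old range. STAT3 had 1 probe set, and all its values lay under the median intensity of every array (24.2 to 25.8). STAT5A read 11.1, 11.4 and 9.70 in young, 8.38, 10.6 and 10.2 in middle-aged, and 10.6, 11.7 and 13.4 in old ovaries, near the lower quartile of the arrays. STAT2, which carries type I interferon signals, ranged from 33.4 to 46.5, and old 2 was highest. STAT5B, the mediator of growth hormone and prolactin signals, ranged from 183 to 275. All 5 STATs analysed had positive log2 fold changes of old over young, from 0.12 to 0.54, and 1 of them (STAT6) had an unadjusted p under 0.05.

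Of the 7 IRF factors analysed, 3 had positive and 4 negative log2 fold changes of old over young, and the median was -0.13. IRF1, which interferon gamma induces, read 135, 157 and 217 in young, 129.7, 192 and 190.1 in middle-aged, and 205, 154 and 231 in old ovaries. The groups overlapped throughout (log2 fold change of old over young 0.22, 95% interval -0.33 to 0.77, limma adjusted p = 0.728). IRF2, an antagonist of IRF1 at shared sites, read 47.9, 51.8 and 41.9 in young, 54.2, 52.1 and 50.5 in middle-aged, and 34.4, 46.5 and 44.3 in old ovaries. All old values lay below all middle-aged ones, with a log2 fold change of -0.34 (95% interval -0.66 to -0.01, limma adjusted p = 0.621).

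IRF8, a factor of macrophages, dendritic cells and B cells, read 89.7, 153 and 83.1 in young, 48.1, 179 and 81.3 in middle-aged, and 59.8, 45.6 and 77.3 in old ovaries. The old values lay below all young ones, and the middle-aged values spanned both groups, with middle-aged 2 the highest of all. The log2 fold change of old over young was -0.81 (95% interval -1.86 to 0.24, limma adjusted p = 0.485), and its dimmest probe set gave 0.24 instead. IRF5, a factor of toll-like receptor signalling, read 97.2, 79.0 and 77.8 in young, 72.2, 81.8 and 71.0 in middle-aged, and 79.5, 72.1 and 79.3 in old ovaries. IRF3 and IRF7, the factors that induce interferon genes, ranged from 302 to 431 and from 60.1 to 87.8. IRF4 read 12.2 on young 1 and at most 8.18 elsewhere, below the lower quartile of the arrays, and IRF2BP1 was lowest on old 1 (88.5 against 121 to 167).

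Across the set, 28 of 44 genes (63.6%) had positive log2 fold changes of old over young, against 49.4% of all named genes. The median was 0.22 over the members and -0.005 over all genes. At an unadjusted limma p under 0.05, 5 members (11.4%) were higher in old than in young ovaries, against 6.81% of all genes. They were STAT6, IFI16, IFIT3, GBP1 and GBP2. OAS1 alone was lower (2.27% of the members against 12% of all genes). Groups did not overlap for 6 members that were higher in old ovaries (13.6%, against 7.78% of all genes), namely STAT6, IFIT3, MX2, GBP1, IFI16 and IFI44. They did not overlap for 2 that were lower, IRF8 and OAS1 (4.55% against 13.8%).

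Without old 1 the median over the members was 0.12, with 27 of 44 positive. At least 1.5-fold higher in old ovaries were 10 members with and 10 without that array (7.99% and 7.69% of all genes), and 6 were the same, namely GBP1, GBP2, IFI16, IFIT1, IFIT1B and OAS3. IFI27L1, IFI44, IFIT3 and OAS2 reached that size only with old 1 included. Without old 1, IFI27L1 went from 2.09-fold to 1.09-fold and OAS2 from 1.84-fold to 1.13-fold. IFI44 went from 1.79-fold to 1.31-fold, and IFIT3 stayed near the limit, from 1.61-fold to 1.45-fold. IRF8 was the 1 member at least 1.5-fold lower with all arrays (10.5% of all genes), and without old 1 there were 3, with ISG20 and RIGI added (10.6%). Young 2, where GBP1, IFIT3 and STAT6 were lowest among the young, weighed too. Without it, 2 members had an unadjusted limma p under 0.05 in place of 6, and they were IFIT1 and OAS1.

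**Figure D5:**
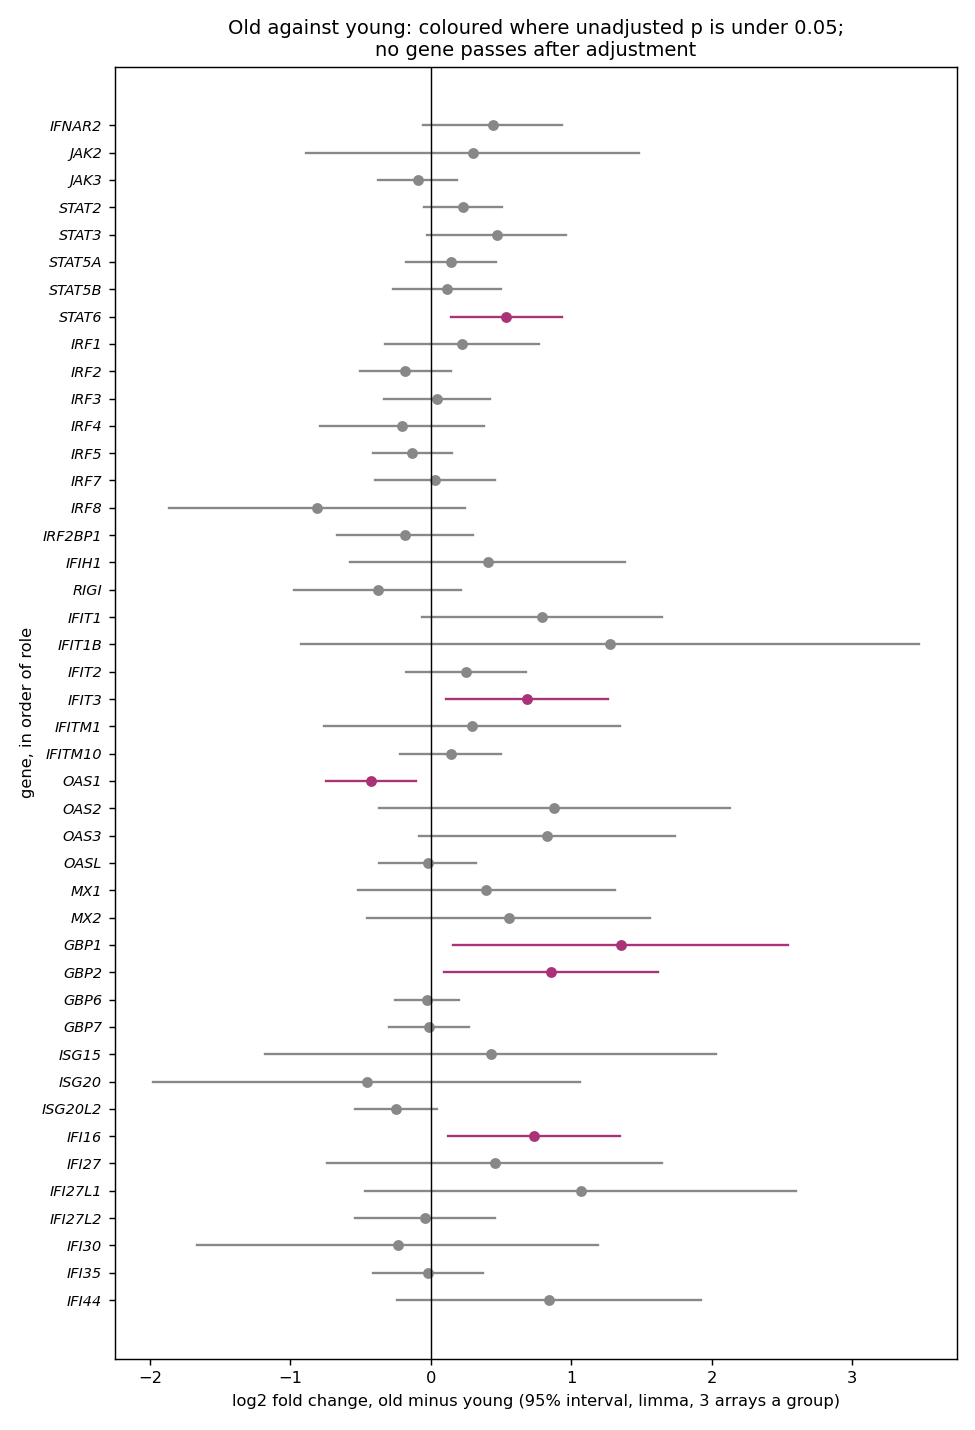
Log2 fold change of old over young ovaries for the 44 genes in order of role, with 95% intervals from limma (3 arrays a group). Coloured points have an unadjusted p under 0.05 (STAT6, IFIT3, OAS1, GBP1, GBP2 and IFI16), and no gene passes after adjustment.

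Between old and middle-aged ovaries, 29 of 44 genes (65.9%) had positive log2 fold changes, against 50.6% of all genes, with medians of 0.15 and 0.003. Either of 2 arrays removed this excess, as 22 of 44 were positive without old 1 (median 0.0052) and 22 without middle-aged 1 (median 0.0057). STAT3 was the member with an unadjusted limma p under 0.05 on the higher side (2.27% of members, 3.67% of all genes) and IRF2 on the lower side (2.27% against 7.61%). The groups did not overlap for 2 higher members, STAT3 and GBP7 (4.55% against 5.55%), and for 2 lower ones, IRF2 and OAS1 (4.55% against 9.22%). These shares were under those of all genes.

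Between middle-aged and young ovaries, 26 of 44 genes (59.1%) were positive, against 46.4% of all genes, with medians of 0.04 and -0.01. Without middle-aged 2, 21 of 44 were positive and the median turned to -0.02. No member had an unadjusted limma p under 0.05, where 1.42% of all genes were higher and 1.88% lower. The groups did not overlap for 1 higher member, OAS2 (2.27% against 4.87%), and for 1 lower member, GBP7 (2.27% against 4.51%). At least 1.5-fold higher in middle-aged ovaries were 5 members (against 2.45% of all genes), namely GBP1, ISG15, MX1, MX2 and OAS2, and 1 was lower, ISG20 (against 3.22%). All 5 had middle-aged 2 as their highest middle-aged array, and without it 0 members were at least 1.5-fold higher and 3 lower (IFI30, IRF8 and ISG20). The comparisons share samples and are not independent of each other.

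Other genes of these pathways, from lists outside the symbol rule, gave no call in any comparison. Of 34 further interferon-stimulated genes measured, old and young ovaries differed at an unadjusted limma p under 0.05 for 5 that were higher (14.7%, against 6.81% of all genes) and 1 that was lower (2.94%, against 12%), and the median log2 fold change was 0.30. ZNFX1, an RNA helicase-like sensor, was 1.52-fold higher (limma adjusted p = 0.205) and PARP12, a mono-ADP-ribosyltransferase, was 1.65-fold lower (limma adjusted p = 0.237). On middle-aged 2, 3 of the 34 stood at least 2-fold above the other arrays, and 9 had their highest value there. On old 1 these numbers were 6 and 10. The shares at least 2-fold above were 8.82% and 17.6%, against 1.32% and 6.98% of all genes.

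A list of genes that interferon gamma induces, of antigen presentation and others such as CXCL11, IDO1 and CD274, parted those 2 ovaries. Of 22 measured, 9 (40.9%) stood at least 2-fold above the other arrays on old 1, against 6.98% of all genes, and 1 (4.55%) on middle-aged 2, against 1.32%. The transactivator NLRC5 read 58.6, 36.4 and 69.0 in young, 57.1, 98.8 and 60.5 in middle-aged, and 321, 94.9 and 127.6 in old ovaries. The immunoproteasome subunit PSMB10 read 201, 219 and 348 in young, 179, 315 and 181 in middle-aged, and 874.5, 471 and 306 in old ovaries. NLRC5 was 2.98-fold higher in old than in young ovaries (limma adjusted p = 0.207), and the peptidase ERAP2 was 1.98-fold lower (limma adjusted p = 0.159). Over the 22 genes, 3 (13.6%) were higher and 1 (4.55%) lower at an unadjusted p under 0.05, against 6.81% and 12% of all genes, and the median log2 fold change was 0.34.

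Of 24 interferon genes listed, 5 were measured. IFNA21, IFNB1, IFNG and IFNK lay under the lower quartile of every array, and IFNL1 read between 15.7 and 22.9, below the median of every array (24.2 to 25.8). Of 18 measured genes of nucleic acid sensing, 4 (22.2%, against 6.81% of all genes) were higher in old than in young ovaries at an unadjusted limma p under 0.05 and none lower (against 12%), namely TANK, STING1, TBK1 and MAVS, each with an adjusted p of at least 0.333. STING1, the adaptor of cytosolic DNA sensing, read 177, 166 and 139 in young, 155, 215 and 212 in middle-aged, and 341, 161 and 315 in old ovaries. Old 1 and old 3 were high, as they were on the brightest probe set of GBP2.

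Among 18 measured kinases and inhibitors of JAK-STAT signalling, 4 (22.2%) were higher and none lower in old than in young ovaries at an unadjusted limma p under 0.05, against 6.81% and 12% of all genes. The adaptor SH2B3, a brake on JAK2, read 113, 98.8 and 104 in young, 99.96, 148 and 202 in middle-aged, and 567, 141 and 299 in old ovaries (2.74-fold higher in old than in young, limma adjusted p = 0.237). Old 1 was its highest array, where JAK2 was lowest, and old 3 was its second highest, where JAK2 was highest. A relation between SH2B3 and JAK2 was not tested. SOCS3, a feedback inhibitor, read at most 8.16 on any array. Of 23 measured cytokine and hormone receptors, 5 (21.7%) were higher and 1 (4.35%) lower on that measure, with the erythropoietin receptor EPOR at 30.1, 26.7 and 31.9 in young, 23.0, 21.1 and 37.9 in middle-aged, and 265, 129 and 46.8 in old ovaries. Its 3.97-fold difference between old and young had a limma adjusted p of 0.190. Of 12 measured STAT targets outside the interferon response, 2 were higher (CEBPB and CCND1, 16.7%) and 1 lower (PIM1, 8.33%).

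Markers of other cells moved with some of these values. The summed intensity of 16 macrophage and monocyte markers was 2978 to 4065 in young, 2538 to 4833 in middle-aged and 3580.2 to 4894 in old ovaries, and middle-aged 2 and old 1 had the highest sums. The sum of 10 NK and cytotoxic markers was 16931 on old 1 and 3755 to 6820 on the other arrays. Of the sum on old 1, granzyme B (GZMB), named here after its values were seen, made up 13847, and it read 27.0 to 276 elsewhere. The median log2 deviation of these 10 markers from their means was 0.06 on old 1, against 0.35 on old 3 and 0.19 on young 3. Old 1 was the highest array for 4 of the 10. The sum of 10 T cell markers was 308 to 518, with old 1 near its lower end. The sum of 16 endothelial markers was 2804 to 4340.0 in young, 3654 to 7562 in middle-aged and 3599 to 14263 in old ovaries. Old 3 and old 1 were highest, the 2 arrays on which STING1 and the brightest probe set of GBP2 were high. The sum of 6 markers of steroid-making cells was 8230 to 37954 in old ovaries, highest on old 1, and 1961 to 7398 in all others. The median log2 deviation of these 6 markers was 1.71 on old 1 and 1.76 on old 2. On old 3 it was -0.18, inside the range of the younger arrays (-1.66 to 0.18). Only 1 of the 6, CYP17A1, stood at least 2-fold above the other arrays on old 3. The sum of 6 red blood cell markers was 492 to 798 in young, 1187 to 2122 in middle-aged and 1349 to 4003 in old ovaries. The sum of 9 smooth muscle and pericyte markers was 16093 on middle-aged 3 and 22413 on old 3, the 2 highest arrays for IFI16, and 5184 to 10108 on the others. The sum of 9 stromal fibroblast markers was highest on the same arrays (37437 and 31813), and 14708 to 27265 on the others. All of these lists had defining markers above the lower quartile of the arrays. Their part in the results was not tested.

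Oocyte and granulosa cell markers of an ovary were present. The sum of 18 oocyte markers was 3476 to 9574 in young, 2221 to 7112 in middle-aged and 642 to 1809.8 in old ovaries. That of 10 granulosa cell markers was 4551 to 14034 in young and 4138 to 10344 in middle-aged ovaries. It was 11993 on old 1, 5181 on old 2 and 2230 on old 3. Spike-in controls lay between -0.20 (old 1) and 0.33 (old 3) of their mean on the log2 scale, and middle-aged 2 was at -0.08. The log2 ratio of 3′ to 5′ signal of actin was 4.33 on middle-aged 2, 3.89 on old 1 and 3.74 to 4.38 on the other arrays. That of GAPDH was 1.86 on middle-aged 2, 1.64 on old 1, the lowest array, and 1.69 to 2.36 on the others.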

How the data were processed

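Ovarian RNA of 9 monkeys was measured on 9 one-colour Affymetrix arrays. The deposited values are 1 linear intensity per probe set, made by the authors with RMA per the labels (version not given in the sources used here), whereas the paper's methods describe LOWESS normalization with dye reversal, and the labels were followed here. Detection calls and batches were not given. Of 52865 probe sets, 99 controls were left out, and 52766 were taken to log2 with no further normalization. Of these, 24956 carried 1 gene symbol in the array annotation, 361 several and 27449 none. Tests used limma 3.58.1 in R 4.3.3 with 1 mean per age group over all 9 arrays. SAM, written in R, used 20 labelings and a q limit of 5 percent. Both were tested on simulated data.

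The members and lists were chosen with earlier results of these data known. Values on every array are given for the 5 members with the highest and the 5 with the lowest moderated t in old against young, the 3 and 3 in each other comparison, ISG15, MX1, IRF1 and the 3 widest ranges. Others were added after their values were seen. Of each other list, up to 4 genes with the smallest p in old against young could be named. Alternatives were other scalings, probe set rules, variance models and left-out arrays.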

Additional observations from a re-analysis of the deposited data

How the results depend on the processing

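The log2 fold changes of 27 pairs of gene and comparison kept their sign in 532 of 534 refits with another setting. The 2 exceptions were OAS1 with the mean of its probe sets, at 0.28 for old over young and 0.22 for old over middle-aged. Most of these pairs were chosen for a high or low t, which favours a stable sign. Many of the refits also could not change a sign. The brighter probe sets alone, the intensity trend, only the 2 groups compared and the replicate block left the group difference unchanged. So did leaving out an array of the group not compared, and other probe set rules could not move a gene with 1 probe set. Signs did turn outside these pairs when middle-aged 2 was left out. ISG15 went from 0.79 to -0.12 for middle-aged over young and from -0.37 to 0.54 for old over middle-aged. MX1 went from -0.44 to 0.01 for old over middle-aged. With each array left out in turn, 0 to 1 members were called between old and young ovaries (GBP2, without old 2) and 0 in both other comparisons. Members at an unadjusted limma p under 0.05 numbered 2 (without young 2) to 10 (without middle-aged 2) for old against young, 1 to 5 (without old 3) for old against middle-aged, and 0 to 5 (without middle-aged 1) for middle-aged against young, against 6, 2 and 0 with all arrays. The median log2 fold change was 0.12 to 0.23, 0.0052 (without old 1; 0.00573 without middle-aged 1) to 0.26, and -0.02 to 0.13.

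For old against young, 3 members had such a p without the 3 arrays numbered 3 together. For old against middle-aged, 1 did with quantile normalization (STAT3), 0 on the brighter probe sets alone, 5 with the probe set of smallest p, and 1 without the arrays numbered 3. The median there was -0.00704 with array weights. For middle-aged against young, 1 did with the mean of all probe sets (IFI16), with an intensity trend (GBP7), with only the 2 groups compared (OAS2), and without middle-aged 2 and old 1 together (added once the data were seen). It was 4 with the probe set of smallest p and 7 with array weights. The causes were not tested. SAM called 0 members in each comparison. The labels repeat replicate numbers 1 to 3 and do not say that the numbers pair the monkeys. Deviations of same-numbered arrays correlated between -0.02 and 0.41, and those of differently numbered arrays between -0.42 and 0.25. The arrays numbered 3 gave 0.25, 0.35 and 0.41 among themselves. Whether they share a factor was not tested. A replicate block gave 7, 1 (IFITM10) and 1 (IFI16) members at an unadjusted p under 0.05 in the 3 comparisons and called 0.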
